A study of Mus musculus with 74 samples.

Results

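The windows described here are stretches of 1 kb of the mouse autosomes with called peaks of histone H3 lysine 9 trimethylation (H3K9me3). The peaks were called in fertilized zygotes at pronuclear stage 5 (PN5). None was called there in the cumulus cells or cloned embryos of the same series. A window without a called peak may still carry the mark below the calling limit. Each autosome of the mm10 assembly was divided into windows of 1000 bp from its first base. A window was a member when PN5 peaks covered at least 500 bp of it and no peak of any of the 9 other lists touched a single base of it. The rule found 25321 members, which was 21.9% of the 115497 windows marked in PN5 (95% Wilson interval 21.7 to 22.2%) and 1.06% of the 2395928 autosomal windows with at least 500 assembled bases. The members were thus chosen by the PN5 peak calls themselves, and the PN5 cover, fold enrichment and q values of the members are given below as a description.

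H3K9me3 was profiled by ultra-low-input native ChIP-seq, in which nuclease-digested chromatin from few cells is precipitated without crosslinking. The labels list 74 libraries, of which 41 were H3K9me3 precipitates and 33 were inputs, and 10 peak lists were used, 1 for each cell type or stage. Per the labels, PN5 zygotes came from matings of C57BL/6 females with C57BL/6 males, and they were represented by 2 precipitates. The 9 other lists follow a single lineage of B6D2F1 mice (also called BDF1). They hold cumulus cells (CC, the somatic cells around the oocyte that donated the nuclei, 4 precipitates) and cloned embryos, made by nuclear transfer from these somatic cells (SCNT). A CC nucleus was injected into an enucleated B6D2F1 oocyte, which was then activated in SrCl2 with cytochalasin B. The SCNT embryos were taken at 6 and 14 h post activation (hpa, 5 and 4 precipitates), at the 2-cell stage (6), the 4-cell stage (3), the 8-cell stage (7) and the morula (6), and as blastocysts divided into ICM, the inner cell mass, and TE, the trophectoderm (2 each). The study states that its fertilized H3K9me3 data were taken from an earlier publication. Embryo type, strain, sex composition and source of the data change together between PN5 and the other lists, so their parts in any difference cannot be told apart.

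The replicates of each group had been pooled before peaks were called. No value in this report therefore has a replicate error, no comparison between lists could be tested over samples, and no p-value is given. Intervals cover counting error only and treat windows as independent, although neighbouring windows often lie under the same peak. The lowest and highest value over the 19 autosomes are given with the main shares to show how evenly a feature held along the genome. PN5 had 127311 autosomal peaks covering 129 Mb, and the other lists covered from 123 Mb (2-cell) to 212 Mb (CC).

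H3K9me3 is written by the Suv39h and Setdb1 methyltransferases and bound by HP1 proteins, and it is best known for the silent chromatin of satellite repeats, retrotransposons and zinc finger gene clusters. In the mouse zygote the maternal chromatin brings H3K9me3 from the oocyte, whereas the paternal chromatin, packed with protamines in sperm, is assembled anew. A donor nucleus, by contrast, enters the oocyte with the heterochromatin of a somatic cell.

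Stretches of 300 bases from members at the extremes of the set show what kind of sequence was marked. They are written 5′ to 3′ on the plus strand of GRCm38.p6, the assembly that mm10 names, and capitals mark CpG dinucleotides. The first 4 are from the members of highest PN5 fold, in that order. The first lies at chr14:118098351-118098650 in an intergenic stretch whose nearest protein-coding gene is Tgds. The second lies in an intron of Mymk, which encodes the myoblast fusion protein myomaker, at chr2:27063351-27063650. The third is intergenic, 47327 bp from its nearest protein-coding gene, Rbm15, at chr3:107381535-107381834. The fourth lies almost wholly in coding sequence of Epb41l2, a cytoskeletal protein gene of the band 4.1 family, at chr10:25441575-25441874, with 288 coding bases. The last 3 lie in the middle of long unbroken runs of members whose middle was under a PN5 peak, in Timeless (chr10:128246351-128246650), in Tns2 (chr15:102101851-102102150) and in the run over Cabin1 and Susd2 (chr10:75645351-75645650).
Tgds-side intergenic window: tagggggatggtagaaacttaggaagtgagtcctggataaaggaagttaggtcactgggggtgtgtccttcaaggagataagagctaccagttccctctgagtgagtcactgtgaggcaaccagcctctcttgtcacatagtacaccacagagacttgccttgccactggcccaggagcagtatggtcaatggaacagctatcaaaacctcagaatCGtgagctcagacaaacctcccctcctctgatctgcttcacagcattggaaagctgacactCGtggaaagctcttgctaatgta
Mymk intron: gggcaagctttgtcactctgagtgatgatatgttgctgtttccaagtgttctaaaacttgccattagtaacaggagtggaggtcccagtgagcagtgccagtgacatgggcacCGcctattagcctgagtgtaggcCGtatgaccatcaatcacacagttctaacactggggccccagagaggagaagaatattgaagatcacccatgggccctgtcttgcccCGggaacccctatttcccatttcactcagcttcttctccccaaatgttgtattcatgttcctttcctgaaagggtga
Rbm15-side intergenic window: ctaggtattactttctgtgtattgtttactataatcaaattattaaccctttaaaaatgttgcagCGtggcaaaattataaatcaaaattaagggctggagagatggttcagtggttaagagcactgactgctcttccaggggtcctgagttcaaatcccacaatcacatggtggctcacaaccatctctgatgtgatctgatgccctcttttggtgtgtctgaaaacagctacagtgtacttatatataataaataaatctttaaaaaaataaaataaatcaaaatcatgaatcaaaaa
Epb41l2 coding exon: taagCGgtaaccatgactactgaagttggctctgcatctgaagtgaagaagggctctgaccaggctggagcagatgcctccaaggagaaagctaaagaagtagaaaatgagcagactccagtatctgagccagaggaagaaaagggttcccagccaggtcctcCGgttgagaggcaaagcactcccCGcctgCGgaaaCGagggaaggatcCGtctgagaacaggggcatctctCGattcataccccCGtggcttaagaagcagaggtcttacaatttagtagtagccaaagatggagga
Timeless run: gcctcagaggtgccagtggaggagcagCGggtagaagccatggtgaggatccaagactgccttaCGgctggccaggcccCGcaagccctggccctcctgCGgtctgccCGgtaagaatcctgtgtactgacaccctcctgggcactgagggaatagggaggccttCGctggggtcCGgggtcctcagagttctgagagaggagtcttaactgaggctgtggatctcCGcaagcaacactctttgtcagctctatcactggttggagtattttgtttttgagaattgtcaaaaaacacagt
Tns2 run: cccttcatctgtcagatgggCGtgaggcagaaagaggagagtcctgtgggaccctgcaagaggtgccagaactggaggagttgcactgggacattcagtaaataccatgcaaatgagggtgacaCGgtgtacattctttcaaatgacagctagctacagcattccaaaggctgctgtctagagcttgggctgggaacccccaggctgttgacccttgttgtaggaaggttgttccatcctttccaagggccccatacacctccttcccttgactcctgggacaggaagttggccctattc
Cabin1 and Susd2 run: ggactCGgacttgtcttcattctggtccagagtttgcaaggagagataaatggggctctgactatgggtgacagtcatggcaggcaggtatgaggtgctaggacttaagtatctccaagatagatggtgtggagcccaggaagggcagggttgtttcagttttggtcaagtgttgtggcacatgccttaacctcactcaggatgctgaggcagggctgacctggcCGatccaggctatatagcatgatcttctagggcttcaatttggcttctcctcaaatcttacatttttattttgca
PN5 peaks covered all 300 bases of each of these stretches, and no other list had a base in them. The stretches held 2, 3, 1, 8, 8, 2 and 2 CpG dinucleotides in the order printed. Soft-masked bases, which mark the interspersed and simple repeats of the assembly's repeat annotation, made up 68.3% of the stretch nearest Rbm15, 8.00% of the Timeless stretch and 24.0% of the Cabin1 and Susd2 stretch, and were absent from the others. Over the whole 1-kb windows of the 4 members of highest fold, soft-masked bases made up 10.9% to 25.2%.

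To ask whether PN5 was unusual in having windows of its own, the same rule was applied to every list in turn. CC had 19253 windows that no other list touched, 9.74% of its marked windows, and the 6 hpa list had 8107 (6.83%). The 8-cell list had 7802 (5.33%) and the 14 hpa list 4661 (2.39%). The share was lowest at the 2-cell stage, where 409 windows (0.368%) were found in that list alone. PN5 thus had the highest share of the 10 lists, 2.25 times that of CC, but it is also the only list from fertilized embryos, whereas each SCNT list has neighbouring stages of the same lineage beside it. PN5 stayed highest when all peaks with a −log10 q under 2 were removed (18.6%, with CC next at 13.3%), and when every list was trimmed by q to the covered length of the shortest (28.0%, with 6 hpa next at 10.5%).

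**Figure D1:**
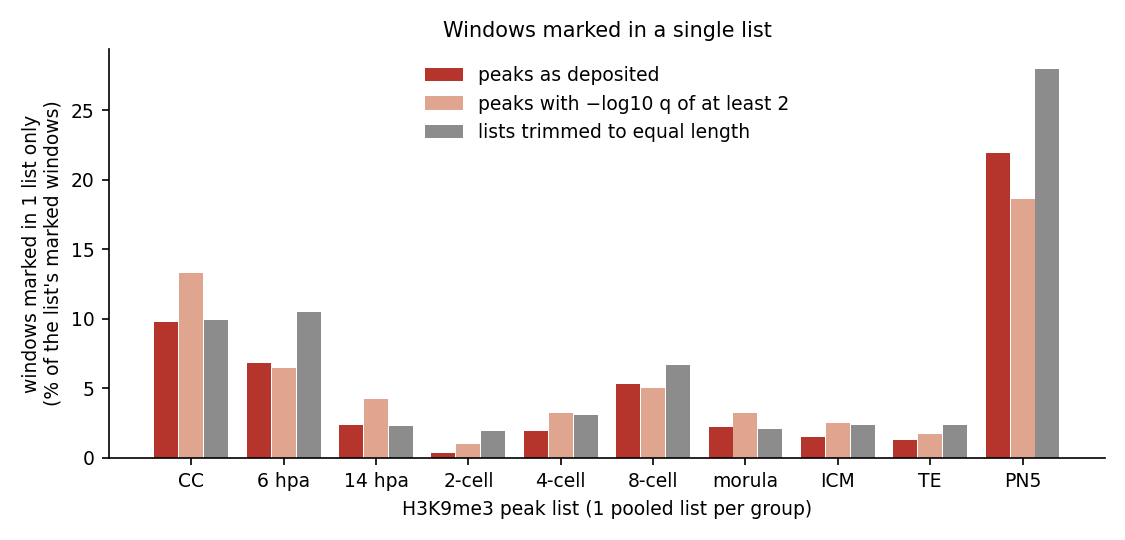
Share of each list's marked windows that no other list touched, in percent, for the 10 pooled H3K9me3 peak lists. Bars show peaks as deposited, peaks left after a limit of 2 on −log10 q, and lists trimmed to equal covered length; PN5 stands at 21.9%, 18.6% and 28.0%, and the highest other list at 9.74%, 13.3% and 10.5%.

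The members were weakly enriched and narrow. The PN5 peaks over them had a median fold enrichment over input of 2.84 (middle 50% 2.71 to 3.03, range 2.16 to 4.82), against 2.99 in the 90176 other PN5-marked windows. The median −log10 q was 1.90 in members and 2.31 in the others, where 1.30 is the lowest value in the PN5 list. The median peak width was 1328 bp against 1940 bp. In all, 19895 PN5 peaks held at least 1 member, and 15786 of them (79.3%) had no base in common with a peak of any other list along their whole length. The median distance from a member to the nearest peak of another list was 2585 bp (middle 50% 746 to 6825 bp), against 3555 bp for windows that were unmarked in every list. The nearest 25% of members lay within 746 bp of such a peak.

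Just inside and just outside the minimum of PN5 cover the windows were alike in these measures. The 3066 members whose PN5 cover was under 50 bp above the minimum had a median fold of 2.79, a median GC of 45.4% and a median soft-masked share of 18.0%. The 3442 windows that fell short of the minimum by 50 bp or less and had no other peak had 2.79, 45.2% and 19.8%. At the other limit, 722 PN5-marked windows missed membership because another list covered 1 to 50 bp of them, and their median fold was 2.92 (2.84 in members). Their median soft-masked share was 21.1%, against 16.9% in members, and 48.5% lay in protein-coding genes, against 59.7% of members. Members covered from end to end numbered 6662 (26.3%), with a median GC of 48.1% and 65.2% in protein-coding genes.

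Members lay mainly inside genes. Of the 25321 member windows, 15120 (59.7%, interval 59.1 to 60.3%, autosomes 45.8 to 74.8%) were centred in the body of a protein-coding gene. The share was 31.4% in other PN5-marked windows, 41.3% in all windows and 46.8% in windows that no list touched. It was higher in members than in other PN5-marked windows on 19 of 19 autosomes, by 20.4 to 43.1 percentage points, and higher than in all windows on 19 of 19, by 10.3 to 31.6 points. Introns held 50.1% of member centres, against 28.1% of other PN5-marked windows. Exons of protein-coding genes held 9.65% against 3.22%, and their coding parts alone held 5.01% against 1.71%. Intergenic sequence held the centres of 34.2% of members and 60.3% of the other PN5-marked windows.

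They also held less repeat sequence than the rest of the PN5 list. The median soft-masked share of a member was 16.9% (autosomes 14.5 to 20.0%), against 39.9% in other PN5-marked windows and 24.9% in all windows. Windows that were at least 80% soft-masked made up 2.34% of members (interval 2.16 to 2.54%), 25.1% of other PN5-marked windows and 10.3% of all windows, and the share in members was below both on 19 of 19 autosomes. Reads from repeats can map to several places, and how such reads were handled is not given in the sources used here.

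Base content set the members apart from the genome but less from the other PN5-marked windows. The median GC was 46.7% in members (autosomes 44.3 to 48.8%), 45.9% in other PN5-marked windows and 41.7% in all windows. Windows of at least 50% GC made up 29.9% of members, 20.1% of other PN5-marked windows and 8.47% of all windows. The CpG observed-to-expected ratio was low throughout, with medians of 0.181, 0.193 and 0.162. Starts and CpG islands were a small part of the set. Windows centred within 1 kb of a protein-coding gene start made up 2.00% of members (interval 1.84 to 2.18%), 1.24% of other PN5-marked windows and 1.63% of all windows, and windows touching a CpG island made up 1.73%, 1.27% and 1.07%. The last share was the one most affected by a single list, and without the 6 hpa list it was 3.17% of members.

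Windows marked in a single SCNT-lineage list differed from members to different degrees. Those found in CC alone had a median GC of 37.8% and a median soft-masked share of 51.6%, and 23.1% were in protein-coding genes. Those found at 14 hpa alone were also unlike the members, with a median GC of 38.7%, a median soft-masked share of 40.8% and 27.1% in protein-coding genes. Those found at 6 hpa alone resembled the members in their share in protein-coding genes (56.0%) and their soft-masked share (14.2%). At 6 hpa, however, 20.6% were within 1 kb of a gene start and 2434 of 8107 touched a CpG island, and both shares were above those of PN5 members on 19 of 19 autosomes. Windows found at the 8-cell stage alone had a soft-masked share of 16.2%, close to that of members, and 35.7% of them were in protein-coding genes.

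**Figure D2:**
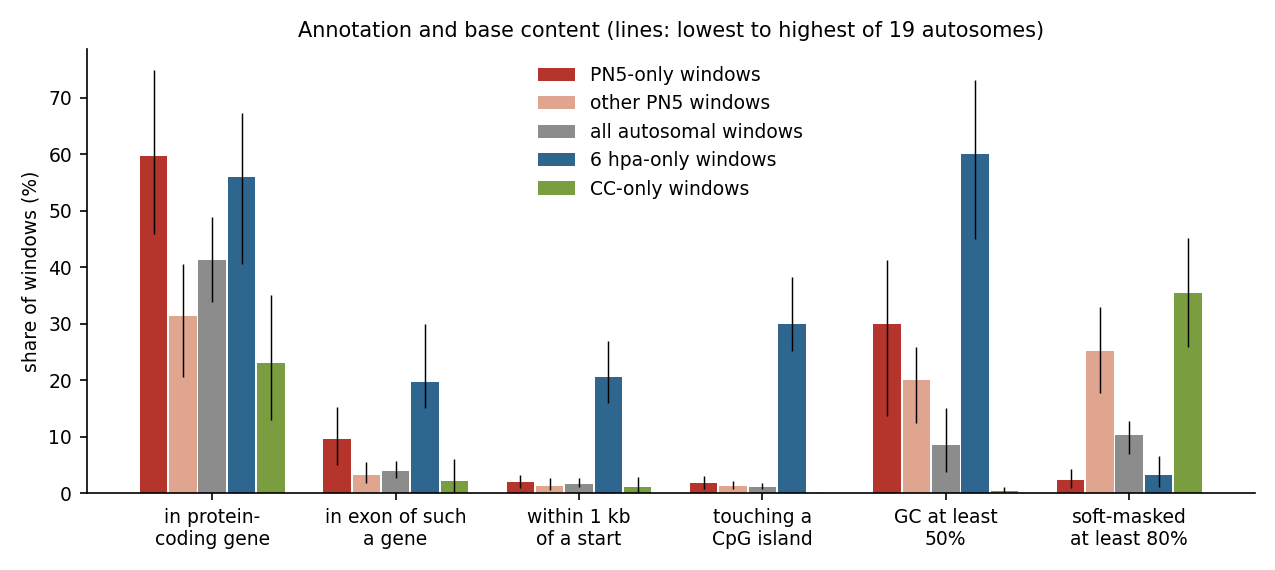
Share of windows, in percent, with each of 6 features of annotation or sequence, for members (PN5-only), other PN5-marked windows, all autosomal windows, and windows marked at 6 hpa alone or in CC alone. Bars are the shares over all autosomes and lines run from the lowest to the highest autosome; members are high in protein-coding genes (59.7%) and low in soft-masked sequence (2.34%), and 6 hpa-only windows are high at gene starts (20.6%) and CpG islands.

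The features changed step by step with the number of lists that shared a window. Among all PN5-marked windows, the share in protein-coding genes was 59.7% with no other list, 51.5% with 1, 42.2% with 2, 33.4% with 5 and 19.6% with all 9. The median soft-masked share was 16.9%, 21.3%, 24.5%, 28.5% and 89.4% in the same order. The median −log10 q of the PN5 peak was 1.90 with no other list and 2.62 with all 9. Median GC hardly moved, at 46.7% with no other list, 44.8% with 4 and 47.0% with all 9. PN5 marking thus had members at one end, in mostly unique genic sequence with weak peaks, and 26879 windows found in every list at the other, in repeats with stronger peaks.

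**Figure D3:**
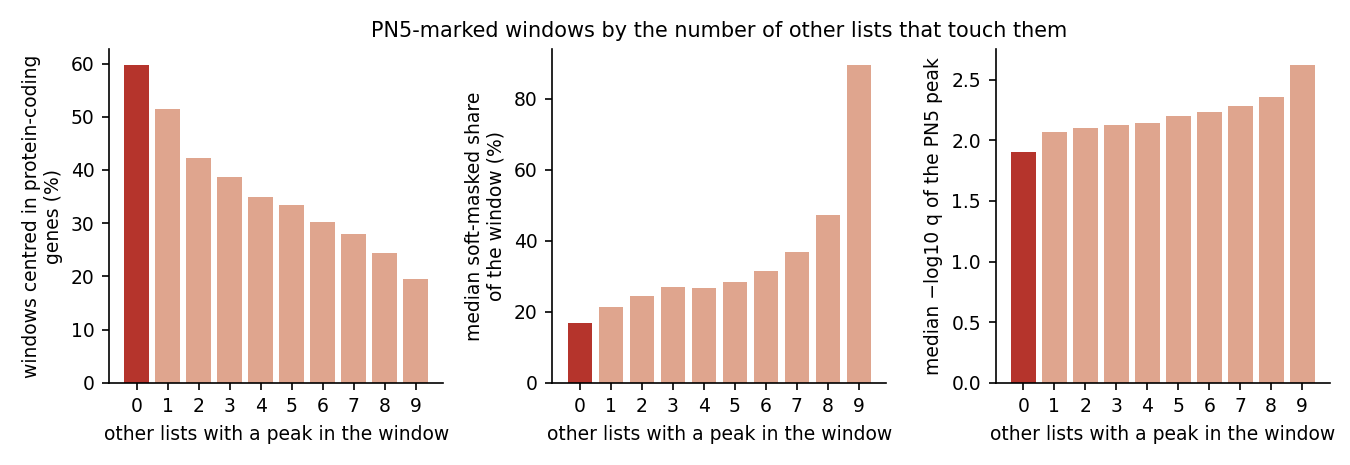
PN5-marked windows by the number of other lists with a peak in the window (0 to 9, horizontal axes). The panels give the percentage centred in protein-coding genes (59.7% at 0, 19.6% at 9), the median soft-masked share (16.9% and 89.4%) and the median −log10 q of the PN5 peak (1.90 and 2.62); members are the dark bars.

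The place in genes was compared at like base content, since GC and genes go together. Among windows of 45 to 50% GC, 61.0% of members were in protein-coding genes, against 30.1% of other PN5-marked windows and 46.5% of all windows. Among windows under 40% GC the shares were 33.8%, 23.1% and 34.1%, so AT-rich members were not more often in genes than AT-rich windows at large. Among windows of at least 50% GC they were 79.9%, 44.1% and 62.2%. Put as a density, members made up 48.0 of every 1000 windows of at least 50% GC inside protein-coding genes and 19.8 outside, while other PN5-marked windows made up 63.4 inside and 132 outside. Of windows that were both 45 to 50% GC and under 10% soft-masked, 68.7% of members, 42.1% of other PN5-marked windows and 55.6% of all windows were in genes.

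Within genes the members grew denser from start to end. In 13520 protein-coding genes of at least 10 kb, each divided into 10 equal bins in the direction of transcription, members made up 10.8 of every 1000 windows in the first bin (interval 10.2 to 11.5) and 20.5 in the last (19.6 to 21.4), a ratio of 1.89. The last bin was higher on 19 of 19 autosomes, with ratios from 1.14 to 2.95. Other PN5-marked windows went from 23.0 to 27.9 per 1000 (ratio 1.21, higher on 13 of 19). Windows of the 6 hpa list alone ran the other way, from 14.4 in the first bin to 3.64 in the last (ratio 0.254, higher on 0 of 19), and CC-only windows were nearly flat (3.95 and 3.71). A window touched by a 6 hpa peak cannot be a member, so the slopes of members and 6 hpa windows are not independent. The gradient was not recomputed without the 6 hpa list.

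The gradient was present in introns alone, where the ratio of last to first bin was 1.64 and 18 of 19 autosomes had the higher last bin. It depended on base content. In windows of at least 50% GC the density went from 23.3 to 67.2 per 1000 (ratio 2.89, 19 of 19 autosomes), and in windows of 45 to 50% GC it went from 16.5 to 21.7 (ratio 1.32, 14 of 19), with the highest value in the bin before the last (25.3). Mean GC itself was 44.2% in the first bin and 43.8% in the last. By gene length the ratio was 2.19 for genes of 10 to 30 kb, 2.41 for 30 to 100 kb and 1.58 for over 100 kb. Beyond the gene end, in windows outside every annotated gene, members made up 15.3 per 1000 in the nearest kb and 10.2 at 10 kb. Before the start they made up 11.4 in the nearest kb and 9.12 at 10 kb.

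**Figure D4:**
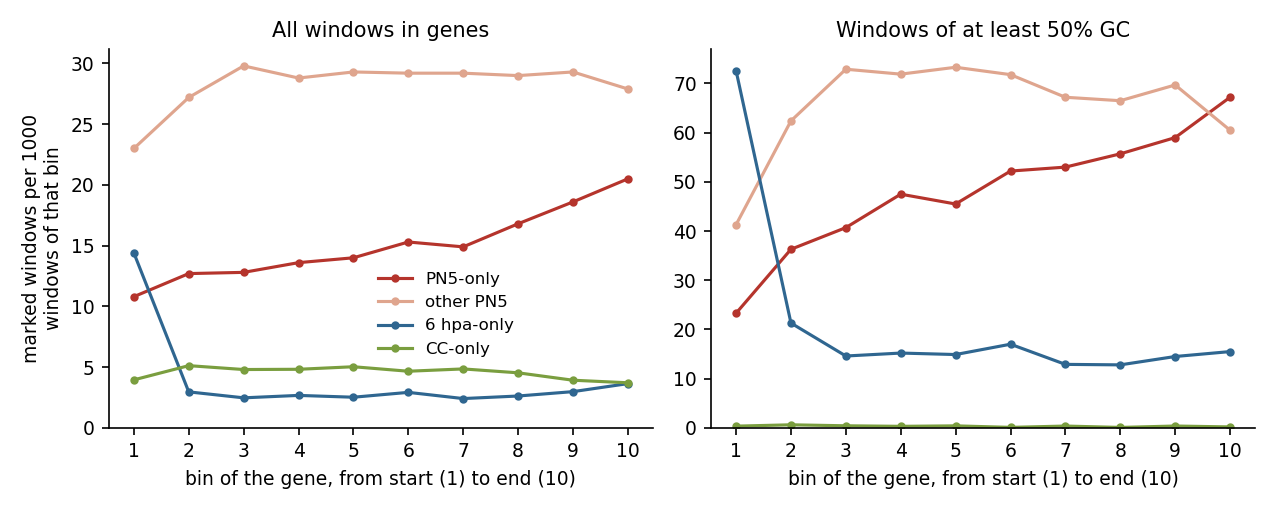
Marked windows per 1000 windows in each of 10 bins of 13520 protein-coding genes of at least 10 kb, from the start (1) to the end (10), for all gene windows (left) and for windows of at least 50% GC (right). Members (PN5-only) go from 10.8 to 20.5 on the left and from 23.3 to 67.2 on the right, and windows of 6 hpa alone go from 14.4 to 3.64 and from 72.6 to 15.5.

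Members were spread over the autosomes unevenly. Chromosome 17 had members in 1.91% of its windows and chromosome 11 in 1.41%, and the lowest were chromosome 3 with 0.770% and chromosome 18 with 0.772%. Chromosome 17 was not the highest for other PN5-marked windows, where chromosome 7 led with 5.54% against 4.69%. The first 5 Mb of assembled sequence, next to the centromere in these acrocentric chromosomes, held 2.29% of members, 6.20% of other PN5-marked windows and 3.95% of all windows. The last 5 Mb held 4.88%, 4.33% and 3.94%.

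**Figure D5:**
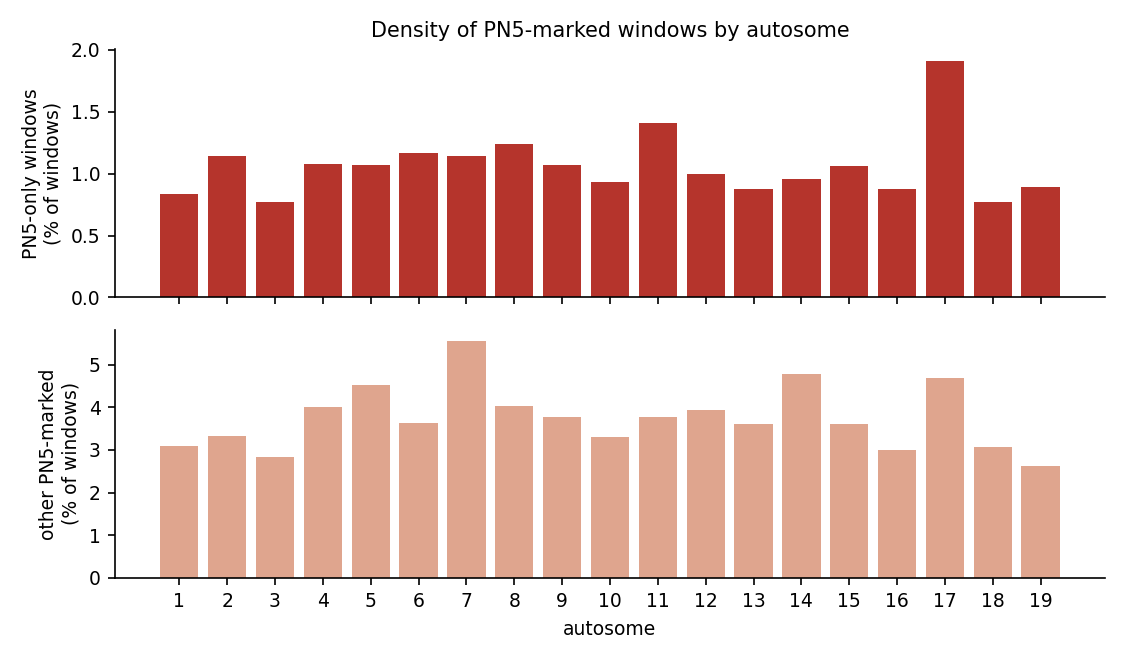
Percentage of the windows of each of the 19 autosomes that were members (above) or other PN5-marked windows (below). Members are densest on chromosome 17 (1.91%) and other PN5-marked windows on chromosome 7 (5.54%).

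Members clustered at the scale of megabases. Of 2403 bins of 1 Mb, 267 had no member and 402 held 50% of them, with a highest count of 121. That bin, on chromosome 17 from 75000001 to 76000000, held 64 members in Ltbp1, which encodes a protein that stores latent TGF-beta in the matrix. The next was also on chromosome 17, from 81000001, with 92 members, of which 60 lay in Slc8a1, the plasma membrane sodium-calcium exchanger. On chromosome 9, a bin with 82 members had 74 of them in Clstn2, which encodes a synaptic calsyntenin. On chromosome 12, the bins from 103000001 and 104000001 held 79 and 68 members. In the first, 25 lay in Serpina1b, 5 in Serpina1e and 4 in Serpina1d. In the second, 7 lay in Serpina3a and 4 each in Serpina3b and Serpina3c. These genes belong to the Serpina1 and Serpina3 clusters of protease inhibitor genes, where near-identical gene copies make the assignment of reads uncertain.

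Most members nevertheless stood alone. There were 19908 unbroken runs, and 15738 of them were a single window, 62.2% of all members. Of the rest, 3253 runs were 2 windows long and 17 were 6 windows or longer. The longest, 9 windows at chr10:128242001-128251000, lay in Timeless, which encodes a protein of the replication fork and of the clock, with PN5 peaks over 89.0% of it and the nearest other-list peak 11402 bp away. It included 2532 coding bases. The next, 8 windows at chr15:102098001-102106000, lay in Tns2, which encodes a focal adhesion tensin (94.6% covered, 2853 bp away). A run of the same length at chr1:120732001-120740000 was intergenic, 124008 bp from its nearest protein-coding gene, En1, and 578 bp from the nearest other-list peak.

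Among the runs of 7 windows, one lay across Cabin1, a calcineurin-binding protein gene, and Susd2 (chr10:75642001-75649000, 100% covered). Another lay in Plcb3, which encodes a phospholipase C (chr19:6954001-6961000, with 1968 coding bases), and another in Serpina3a (chr12:104114001-104121000). The last was intergenic, 7898 bp from Mlycd and 8 bp from the nearest peak of another list (chr8:119419001-119426000). There were 10 runs of 6 windows, and the 3 with the most bases under PN5 peaks, taken to complete the 10, lay in Tnks1bp1, in the kinase gene Taok2 and 50010 bp from Lhcgr. The peak fold in these 10 runs ran from 2.83 to 3.35, against a median of 2.84 over all members.

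The members of highest fold were elsewhere. The window at chr14:118098001-118099000 had a PN5 fold of 4.82 and a −log10 q of 8.39 and was covered whole, with the nearest other-list peak 385 bp away. The Mymk window (chr2:27063001-27064000) had 4.76 and 8.51, and its peak of 3515 bp held 1 member only. An intergenic window at chr3:107381001-107382000 had 4.70, and the Epb41l2 window (chr10:25441001-25442000) had 4.49, with no other-list peak within 15677 bp. The others among the 10 highest had folds from 4.24 to 4.42. They included introns of Twist2, a basic helix-loop-helix factor gene, of Myo9b, an unconventional myosin gene, and of Prkce, a protein kinase C gene. Another was a window in Tnks2, a tankyrase gene, of which 187 bases were coding. For 7 of the 10, a peak of another list lay within 1 kb.

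In all, 5711 of 20807 protein-coding genes (27.4%) had a member in the body or within 1 kb of the start. The share followed gene length, at 8.73% of genes under 10 kb and 63.2% of genes over 100 kb. Per 1000 windows of gene body the order was the reverse, with 24.6 members in genes under 10 kb, about as many from 10 to 30 kb, 17.3 from 30 to 100 kb and 12.1 over 100 kb.

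Genes with many members were long. Gm20388, a gene model of 4434882 bp that spans other genes, had 134 members among 4435 windows. Cacna1c, the pore subunit of an L-type calcium channel, had 83 of 609, Clstn2 79 of 589, Ltbp1 64 of 387 and Slc8a1 60 of 365. Gas7 (48 of 234), the glycosyltransferase gene Galnt18 (48 of 308), the zinc finger repressor gene Klf12 (48 of 414) and Lrmda (47 of 1036) also had many. In Ltbp1, PN5 peaks covered 21.2% of the body, no base was covered at the 2-cell or 4-cell stage, and the highest other list was CC with 1.96%. In Slc8a1 the PN5 cover was 19.9% and the other lists ran from 0.0561% (8-cell) to 1.70% (ICM). Apart from Gm20388, Galnt18 had the highest other-list cover of the genes named here, with 9.88% at the 8-cell stage against 27.5% in PN5. Gas7 had 28.3% in PN5 and at most 3.19% elsewhere (8-cell).

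Small genes could be members almost throughout. Of 17466 protein-coding genes with at least 5 windows, 28 had members in at least 50% of their windows and 230 in at least 25%. These were singled out after their values were seen. Podnl1, a leucine-rich repeat proteoglycan gene, had 6 of 7 windows, with PN5 peaks over 100% of the body and only the 14 hpa list elsewhere (2.97%). Serpina3a had 7 of 9, Ccdc28b 4 of 5, and Recql4, a RecQ helicase gene, 5 of 7, and no other list had a base in these last 3 genes.

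Promoters marked in PN5 alone made up a small share of genes. PN5 peaks covered at least 50% of the 2 kb around the start in 759 of 20807 protein-coding genes (3.65%), and in 182 of them (0.875% of all genes, beside 1.06% of all autosomal windows) no other list had a base there. Without the 6 hpa list the second count would be 296. The shares of genes and of windows are not like for like, since a promoter spans 2 kb and a window 1 kb. The highest fold was at Alad, an enzyme gene of haem synthesis, with 4.08 and 60.6% of the promoter covered. Ccdc61 followed with 3.85, Bccip, which encodes a BRCA2-interacting protein, with 3.67, Chadl with 3.53 and Spon2 with 3.48. Apc2 (3.47), Smim24 (3.41), Tmem268 (3.39), the glycolytic enzyme gene Pgam1 (3.35) and Naxe (3.33) were the rest of the 10. In Alad itself the body was covered to 52.1% in PN5, 13.6% at 6 hpa, 18.0% at 14 hpa and 9.10% in 2-cell embryos, so the absence of other peaks held for its start and not for its body.

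RefSeq promoters were found for 9 of these 10 genes. The 250 bases before the RefSeq start are shown for Chadl and Tmem268, whose CpG content lay far apart, with CpG dinucleotides in capitals, 5′ to 3′ on the strand of the gene (GRCm38.p6). They are chr15:81697288-81697537 on the minus strand for Chadl and chr4:63558513-63558762 on the plus strand for Tmem268.
Chadl: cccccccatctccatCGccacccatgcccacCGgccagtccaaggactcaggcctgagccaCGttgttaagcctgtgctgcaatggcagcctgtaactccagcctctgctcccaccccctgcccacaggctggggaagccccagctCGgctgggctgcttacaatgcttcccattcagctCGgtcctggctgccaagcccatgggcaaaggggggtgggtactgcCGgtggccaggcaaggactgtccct
Tmem268: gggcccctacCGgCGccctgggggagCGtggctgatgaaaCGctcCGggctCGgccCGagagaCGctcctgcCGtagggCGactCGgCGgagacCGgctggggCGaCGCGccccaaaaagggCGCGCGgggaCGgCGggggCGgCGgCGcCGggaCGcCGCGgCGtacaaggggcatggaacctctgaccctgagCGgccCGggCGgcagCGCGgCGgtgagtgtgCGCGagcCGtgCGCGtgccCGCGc
Both stretches lay wholly under PN5 peaks. The Chadl stretch held 6 CpG dinucleotides at a GC of 65.2%, and the Tmem268 stretch held 42 at 78.4%.

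Groups of genes were examined next. The counts are read against the background of 27.4% of genes with a member and 15.3 members per 1000 body windows over all protein-coding genes. Both measures changed with gene length, and the groups were not matched for it. The share with a member was 8.73% of genes under 10 kb and 63.2% of genes over 100 kb, and the densities were 24.6 and 12.1 per 1000. Among enzymes and readers of DNA methylation, 9 of 14 genes had a member (37.2 per 1000 body windows, 26.6 without Tet3). They were the methyltransferases Dnmt1 (4 members), Dnmt3a (2) and Dnmt3b (1), the 5-methylcytosine oxidases Tet1 (1), Tet2 (3) and Tet3 (10 of 97 windows), and the methyl-CpG readers Mbd1 (1), Mbd2 (2) and Zbtb38 (2). Tet3 was covered to 17.4% in PN5, to at most 2.15% in CC and the 1-cell SCNT lists, and to 0% in each list from the 2-cell stage to TE.

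Among H3K9 methyltransferases and heterochromatin proteins, 6 of 21 genes had a member (28.6%; 23.6 per 1000, 16.9 without Chd4). These were Chd4 and Chaf1a with 6 each, Chaf1b with 3, Daxx with 2, and Ehmt1 and Atf7ip with 1 each. Chaf1a and Chaf1b encode subunits of the chromatin assembly factor that deposits H3 at replication, Daxx a chaperone of H3.3, and Chd4 a remodelling ATPase of the NuRD complex, whereas Ehmt1 is the methyltransferase among the 6. Among H3K9 demethylases, 4 of 10 had a member (15.4 per 1000, 11.3 without Phf2), namely Kdm4a and Phf2 with 4 each, Kdm4b with 3 and Jmjd1c with 1.

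Genes of cumulus and granulosa cells, the donor lineage of the SCNT embryos, had a member in 9 of 25 cases (46.4 per 1000, 24.2 without Fshr). Fshr, the receptor for follicle-stimulating hormone, held 32 of the 56 members of this group. It was covered to 23.0% in PN5 and to 5.12% in CC. Its neighbour Lhcgr, the luteinizing hormone receptor gene, had 3, and Runx2 had 13 of the 24 members left without Fshr. Fshr, Lhcgr and Runx2 all lie on chromosome 17, the autosome densest in members (1.91% of its windows). Inhba, which encodes an activin subunit, had 2, and no other list had a base in its body. Imprinted genes had a member in 11 of 38 cases (13.4 per 1000), 15 of the 39 members being in Trappc9. Regulators of pluripotency and trophectoderm had one in 8 of 30 (14.7 per 1000), with 41 of 56 members in the annotated Fgfr2 body of 2960900 bp and 3 in Gata4.

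Maternal effect and oocyte genes had a member in 4 of 22 cases (15.3 per 1000, 7.83 without Tle6), among them Tle6, a gene of the subcortical maternal complex, with 3 of 10 windows. The next groups were below the background on both measures, without matching for gene length. Sperm and spermatid genes had one in 3 of 21 (6.77 per 1000), germline genes silenced by DNA methylation in 3 of 22 (8.18), and neural and muscle genes in 4 of 25 (5.69). Hox genes had one in 2 of 39 (5.85), these being Hoxd3 and Hoxd4. The annotated Hoxd4 body lies within that of Hoxd3, so the same window was counted for both genes. Genes of the minor and 2-cell genome activation had none in 24 matched genes with 306 body windows. Many of those genes are in multicopy families, in which peaks are uncertain.

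Among the 21 loci that the study discusses, 7 had a member (33.3%, against 27.4% of all protein-coding genes). The 21 loci held 17 members (26.6 per 1000 body windows, against 15.3 over all protein-coding genes), 6 of them in Fgfr1. These loci were not matched for gene length either. The transcription factor gene Max had 2 adjacent windows, chr12:76937001-76939000, under a PN5 peak of fold 3.16, with no peak of another list within 22981 bp. They held 732 and 755 exonic bases, of which 0 and 185 were coding. Mcrs1, which encodes a protein of several nuclear complexes, had 1 window at chr15:99243001-99244000, covered over 510 bp, just above the minimum of 500, under a peak of fold 2.91 and −log10 q 1.96. No other list had a base in the Mcrs1 body. The study itself reports that H3K9me3 levels at Max and Mcrs1 did not differ significantly between SCNT and fertilized embryos. It names no stage for this comparison, which may not be that of PN5. Levels were not compared here, so a peak called in PN5 alone is not a measured difference in level at these genes. Fgfr1, a fibroblast growth factor receptor gene, had 6 windows of fold 2.49 to 2.88, Wwp2 and Kdm4b had 3 each, and Mfsd1 and Nckap1 had 1 each.

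Sequence motifs were counted on both strands in whole windows. The E-box CACGTG was found in 12.6% of members, 10.7% of other PN5-marked windows and 9.62% of all windows, and in 12.4% of all windows weighted to the GC classes of the members. The ZFP57 core TGCCGC was in 10.2%, against 14.3%, 5.89% and 10.5% after weighting. The GC box GGGCGG was in 14.7%, against 15.8% and 8.78%, and below the weighted share. CCAAT (74.2%, weighted 75.8%) and the YY1 core CCATNTT (53.6%, weighted 54.2%) were close to the weighted share too. The telomere hexamer repeated without a gap, TTAGGGTTAGGG, was in 35 members, 0.138% (interval 0.0994 to 0.192%), against 0.0676% of other PN5-marked windows and 0.0584% of all windows after weighting.

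Of the 755 12-mers found in at least 1% of members, 13 had a share over 2 times that in all windows. The 10 highest were purine-rich on one strand and lay in few windows. CCTTTCCTTTCC had the highest ratio (1.05% of members, 1.19% of other PN5-marked windows, 0.348% of all windows, ratio 3.02). GAAAGGAAAGGA (2.83), AGGAAAGGAAAG (2.70), AAAGGAAAGGAA (2.43) and AAGGAAAGGAAA (2.31) are shifts of that repeat or of its complement. The other five, GAGGAAGAGGAA (ratio 2.20), AGGAGGAAGAGG (2.11), CTCTTCCTCCTC, GGAGGAAGAGGA and GGAAGAGGAGGA (2.10 each), are runs of GGA and GAA. The first of these kinds was no rarer in other PN5-marked windows, while AGGAGGAAGAGG was in 1.57% of members and 1.22% of the others. Thus no 12-mer was found that marked more than a small part of the set, and the most common one, CACACACACACA, was in 15.2% of members and 13.7% of all windows.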

How the data were processed

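The authors trimmed reads with Cutadapt 1.16, aligned them to mm10 with BWA, merged replicates with SAMtools, removed duplicates and drew equal read numbers with Picard, and called broad peaks over input with MACS2. Other versions and the peak threshold are not given in the sources used here. The deposited lists give each peak's position, a score, a fold ratio over input and −log10 p and q values, and depth per library was not analysed here. Members and gene lists were chosen with earlier results of these data known.

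Peaks of each list were merged and counted in windows of 1000 bp with Python 3.11.15 and NumPy 2.4.6, and intervals were computed with SciPy 1.17.1. The counting was tested on simulated peaks. Soft-masking and GC came from GRCm38.p6 and genes from GENCODE M21. CpG islands (20407) were unmasked stretches over 200 bp with GC of at least 50% and a CpG ratio above 0.6. Overlaps were resolved as coding exon, other exon, then intron, with protein-coding genes first. Named were the 10 longest runs, the 10 highest folds (1 per peak), the 10 genes with most members (1 of them is not reported here), the 10 promoters of highest fold, every listed gene with a member, 6 motifs and the 10 12-mers of highest relative share among those in at least 1% of members. Alternatives changed the cover, the grid (from position 500), the q limit, list length, distance to other peaks and the lists used, or left out 5 Mb at each chromosome end.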

Additional observations from a re-analysis of the deposited data

Results flagged for a closer look

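The members were taken from autosomes alone. Under the same rule the X chromosome had 138 windows marked in PN5 and in no other list. They were 3.49% of the 3956 X windows marked in PN5, against 21.9% on the autosomes. The Y chromosome had 2 such windows of 203 (0.985%). In CC, 6251 of 40053 marked X windows (15.6%) were found in that list alone. Sex composition differs between the fertilized and SCNT groups, since the donor cells came from females, and its part in the X share was not tested.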

How the results depend on the processing

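The count of members followed the cover asked of PN5, with 46332 windows at 250 bp or more and 11346 at 800 bp or more. It was 10847 when only PN5 peaks with a −log10 q of at least 2 were used, 13295 when that limit was set on every list, 8387 when no other peak lay within 5 kb and 39777 when other lists were allowed under 500 bp. Median fold was 2.81 at 250 bp, 2.89 at 800 bp, 3.06 under either q limit, 2.87 with lists trimmed to equal length, 2.82 with no other peak within 1 kb or within 5 kb, and 2.86 with under 500 bp elsewhere. In the order 250 bp, 800 bp, q limit on PN5, q limit on every list, equal length, 1 kb, 5 kb and under 500 bp elsewhere, the share in protein-coding genes was 57.1, 63.3, 64.0, 61.3, 56.1, 62.7, 68.5 and 54.4%, and the share in their exons was 8.39, 10.7, 10.9, 10.5, 8.78, 10.5, 10.3 and 8.30%. The share touching a CpG island was 1.44% at 250 bp, 2.20% at 800 bp, 2.21 and 2.71% under the q limits and 2.07% with under 500 bp elsewhere. The share near a start was 1.81, 2.49, 2.48 and 2.63% in the first 4 of these settings and 1.75% at 5 kb. The median soft-masked share was 18.9% with under 500 bp elsewhere. Promoters of PN5 alone numbered 102 with the q limit on PN5, 58 at 5 kb and 288 with under 500 bp elsewhere.

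Leaving out each of the other 9 lists in turn gave 25662 to 30663 members, a median fold of 2.84 to 2.87, 58.5 to 60.3% in genes, 9.04 to 10.7% in exons, 1.64 to 3.17% touching a CpG island, 1.93 to 2.71% near a start and 182 to 296 promoters, the highest of the last 3 without the 6 hpa list. The causes of these shifts were not tested, but a larger count where lists are left out follows from the rule. Across the 19 settings the share in genes stayed above the 41.3% of all windows, and the median soft-masked share (15.6 to 18.9%) stayed below their 24.9%. A median was taken as moved when it shifted by more than its SD over the 19 autosomes, and a share when it left its Wilson interval. The number of promoters was not recomputed for the 250 bp, 800 bp or shifted windows, which do not enter it. No paired analysis was possible because each list is a pool of its group's replicates, and so replicates could not be left out. Depth per library was not analysed here.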
